A study of Mus musculus with 4 samples.

Results

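The genes described here encode 9 secreted matrix proteins, of which 4 are proteoglycans (Bgn, Dcn, Lum and Vcan) and 5 are matricellular or adhesive glycoproteins (Tnc, Fn1, Postn, Spp1 and Sparc). They were taken by symbol from the feature list of the deposited matrices and are 9 of 52636 genes. Each symbol matched 1 gene. They had been selected on their UMI levels by cell class and library, young against aged, so their age differences are given as values with no test. Glomeruli, the filtering capillary tufts of the kidney, were collected from young and from aged mice that had been perfused through the heart with magnetic beads, and were digested to single cells. RNA was counted in droplets from its 3' end, as unique molecular identifiers (UMIs, 1 per captured RNA molecule), in 2 young and 2 aged libraries. Both groups were untreated. The labels give neither age in months, sex, strain, genotype nor the number of mice behind a library, so the spread between the 2 libraries of a group may be technical in part.

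Matricellular proteins are secreted into the matrix but act mainly as regulators of adhesion, growth factor access and remodelling rather than as load-bearing fibres. The small leucine-rich proteoglycans biglycan, decorin and lumican bind collagen fibrils and growth factors of the TGF-beta family, and soluble biglycan is known as a ligand of Toll-like receptors. In the glomerulus the mesangium is the main interstitial matrix, made by mesangial cells between the capillary loops, and the parietal epithelium lines the capsule around the tuft.

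The libraries held between 18457791 and 42046542 UMIs, and 5035 and 6976 young and 9187 and 6802 aged cells were kept after filtering. Young replicate 2 stood apart: its cells had a median of 1258 UMIs against 2715 to 3730 in the other 3 libraries, and 66.6% of its kept cells received no class, against 4.92% to 7.32%. Of 33323 barcodes, 116 sequences occurred in more than 1 library. Cell classes were assigned from marker genes and are "-like" classes throughout, for example mesangial-like. Podocytes, endothelial, mesangial, parietal epithelial, smooth muscle and renin, monocyte and dendritic, B, and T and NK cell classes had at least 20 cells in each library. Macrophages (3 and 12 young, 557 and 487 aged cells) and neutrophils were counted at that size in the aged libraries only. No cluster was named fibroblast, and no tubule class was formed. Levels are counts per 1000000 UMIs (CPM) of a class in a library. Intervals and upper limits cover counting error only, and an upper limit for 0 UMIs is that of 3 UMIs unless it is called an interval. RNA was read from its 3' end, so CPM is not divided by gene length and compares classes for 1 gene, not genes with each other.

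Upstream sequences of 3 genes are shown because Bgn, Tnc and Postn stood at different levels in young and aged mesangial cells. Each run is the 250 bases before the RefSeq start on GRCm38.p6, read in the direction of the gene. Capitals mark matches on either strand to a TATA box (TATAAA), a GC box as bound by SP1 (GGGCGG), an AP-1 motif (TGANTCA) or a CCAAT box.
Bgn: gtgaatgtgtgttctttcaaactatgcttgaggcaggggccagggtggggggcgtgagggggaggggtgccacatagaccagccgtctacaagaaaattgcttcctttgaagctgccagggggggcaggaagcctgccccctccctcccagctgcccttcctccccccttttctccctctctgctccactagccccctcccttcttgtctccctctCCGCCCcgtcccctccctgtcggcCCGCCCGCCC
Tnc: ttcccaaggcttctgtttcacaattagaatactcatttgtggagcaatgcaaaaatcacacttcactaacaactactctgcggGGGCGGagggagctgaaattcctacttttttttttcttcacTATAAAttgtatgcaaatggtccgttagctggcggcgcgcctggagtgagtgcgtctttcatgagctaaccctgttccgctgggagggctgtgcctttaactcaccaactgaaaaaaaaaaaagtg
Postn: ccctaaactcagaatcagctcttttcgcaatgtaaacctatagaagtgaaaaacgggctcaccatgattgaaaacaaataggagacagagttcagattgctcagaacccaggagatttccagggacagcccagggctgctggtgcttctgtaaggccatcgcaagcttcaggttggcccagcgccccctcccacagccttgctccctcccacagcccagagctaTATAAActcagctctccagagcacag
The Bgn window is chrX:73483351-73483600 on the plus strand, the Tnc window is chr4:64047016-64047265 on the minus strand, and the Postn window is chr3:54360857-54361106 on the plus strand. The Bgn window is 64.4% G and C and holds 3 matches to GGGCGG, all on the other strand, of which the last 2 overlap each other. The Tnc window (44.8% G and C) holds 1 TATAAA, 126 bases before the start, and 1 GGGCGG. The Postn window (52% G and C) holds 1 TATAAA, 26 bases before the start. None of the 3 windows holds the AP-1 motif or the CCAAT box. Of 32851 windows of the same length in that table, 12.4% hold the TATA box, 32.7% the GC box, 6.75% the AP-1 motif and 33.8% the CCAAT box, and a match is a description of the letters only. Windows were found for 6 of the 9 genes. Of the 9, Vcan, Tnc and Fn1 overlap genes on the other strand in the annotation. Spp1 overlaps Gm42793 on its own strand, so reads of Spp1 could be shared or split by the counting.

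**Figure D1:**
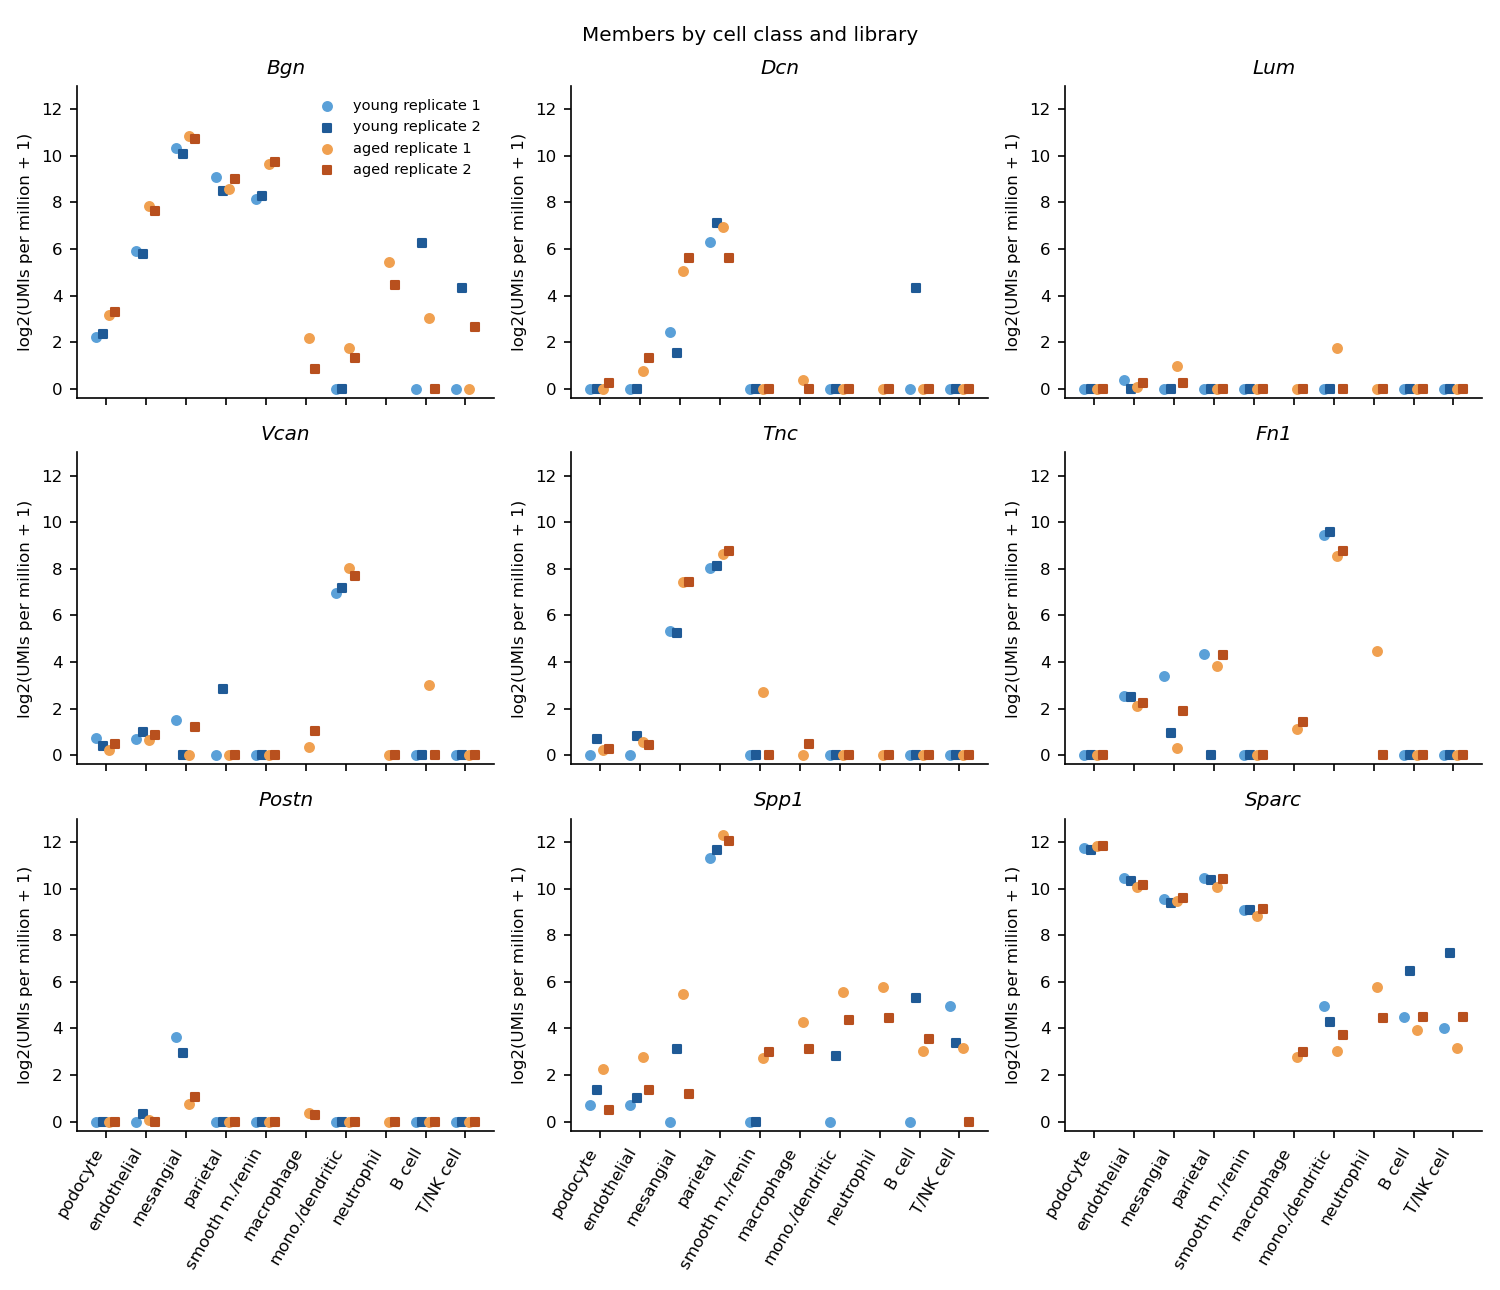
Levels of the 9 genes in each cell class and library, as log2 of CPM plus 1. Each point is 1 library, young in blue and aged in orange. Sparc is spread over the resident classes, and Bgn over those other than podocytes, where it is low. Spp1, Tnc and Dcn lead in parietal epithelial cells, Vcan and Fn1 in monocytes and dendritic cells, and Lum lies near 0 in every class.

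Of the 9 genes, 2 passed the filter on low counts in podocytes, 4 in endothelial, 6 in mesangial, 5 in parietal epithelial and 2 in smooth muscle and renin cells, and the call rule of edgeR (adjusted p under 0.05) marked 1, 2, 3, 1 and 1 of them. Of all genes tested it marked 6.94% in podocytes (4.58% higher with age, 2.36% lower), 5.92% in endothelial (3.97%, 1.94%), 5.46% in mesangial (3.52%, 1.94%), 3.77% in parietal epithelial (2.21%, 1.56%) and 2.16% in smooth muscle and renin cells (1.42%, 0.74%), and 3.11% in monocytes and dendritic cells. The values of the age groups did not overlap for 46.6% of genes in podocytes (18.5% with both aged values above, 28% below), 52.1% in endothelial (15.5%, 36.6%), 54.8% in mesangial (19.5%, 35.3%), 47.9% in parietal epithelial (22.2%, 25.7%), 41.8% in smooth muscle and renin (18.8%, 23%) and 45.9% in monocytes and dendritic cells (19.5%, 26.4%). Nothing is read from the counts of the 9, since the age difference was used to choose them and a gene high in 1 group passes the filter through that group.

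Biglycan (Bgn, ENSMUSG00000031375, chrX:73483602-73495933, plus strand, GRCm38) is a small proteoglycan with chondroitin or dermatan sulfate chains. In mesangial cells it stood at 1308 and 1074 CPM young and 1838 and 1710 aged. Smooth muscle and renin cells had 286 and 310 young and 815 and 855 aged, and endothelial cells 58.7 and 54.2 young and 232 and 200 aged. In each of these classes the aged values exceeded both young values. In parietal epithelial cells the groups overlapped, at 550 and 361 young and 384 and 515 aged. Podocytes had 3.63 and 4.12 young and 7.91 and 8.94 aged, counted from 28, 13, 44 and 44 UMIs. The order of the classes by their mean over the 4 libraries was mesangial (1483 ± 354, SD, n = 4), smooth muscle and renin (566 ± 311), parietal epithelial (452 ± 93.8) and endothelial (136 ± 93.2). The smooth muscle and renin and the parietal epithelial means differ by less than their spread, and their order turns with age: parietal epithelial cells lay above smooth muscle and renin cells in both young libraries and below them in both aged ones.

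The fitted aged-over-young difference of Bgn was 2.05 on the log2 scale (SE 0.15) in endothelial cells, 1.52 (SE 0.21) in smooth muscle and renin cells, 1.19 (SE 0.31) in podocytes, 0.69 (SE 0.18) in mesangial cells and 0.02 (SE 0.24) in parietal epithelial cells. In podocytes the sign turned when doublets were kept, to -0.88 (SE 0.78), a setting that re-clusters all cells. Over the other classes the fitted value kept its sign under all 12 alternatives, except in parietal epithelial cells, where it ran from -0.26 to 0.43. In endothelial cells it ran from 1.93 to 2.18. Without young replicate 2, the library that stood apart, it was 1.95 in endothelial, 1.55 in smooth muscle and renin, 1.23 in podocytes, 0.54 in mesangial and -0.26 in parietal epithelial cells.

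The endothelial difference was also present within clusters of endothelial cells. Cluster 4 held 27.9% and 28.6% of the young endothelial cells, while clusters 3 and 6 together with cluster 8 held the largest shares of aged replicate 1 (16.6%, 14.7% and 12.3%) and clusters 2 and 5 those of aged replicate 2 (12.7% and 12.8%). In 12 endothelial clusters with at least 20 cells in every library, the aged values of Bgn exceeded both young values in 12, and the ratio of the aged to the young mean ran from 2.59 to 13.4 with a median of 4.24. Of 7776 genes compared in the same way, 9 (0.116%) had that order in all 12 clusters, among them Bgn, Clu, Col18a1, Cystm1, Rps28, Snhg12, Zbtb16 and mt-Rnr2, and 3 (0.0386%) had the opposite order, Gimap4, Ice1 and Tm2d3. Those other than Bgn are named after their values were seen. Since Bgn was chosen on its levels in these same libraries, its place in that count is a description. The 12 clusters are parts of the same 4 libraries and not separate repeats. In cluster 4 Bgn stood at 74.2 and 80.6 young and 218 and 182 aged. Cluster 9, led by Tspan8, Thbs2 and Fbln2, had the lowest levels, at 4.76 and 9.04 young and 92.2 and 92.8 aged. Cluster 32 had the highest mean in each age group, at 149 and 51.1 young and 408 and 354 aged, although in young replicate 2 it lay below 5 other clusters.

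**Figure D2:**
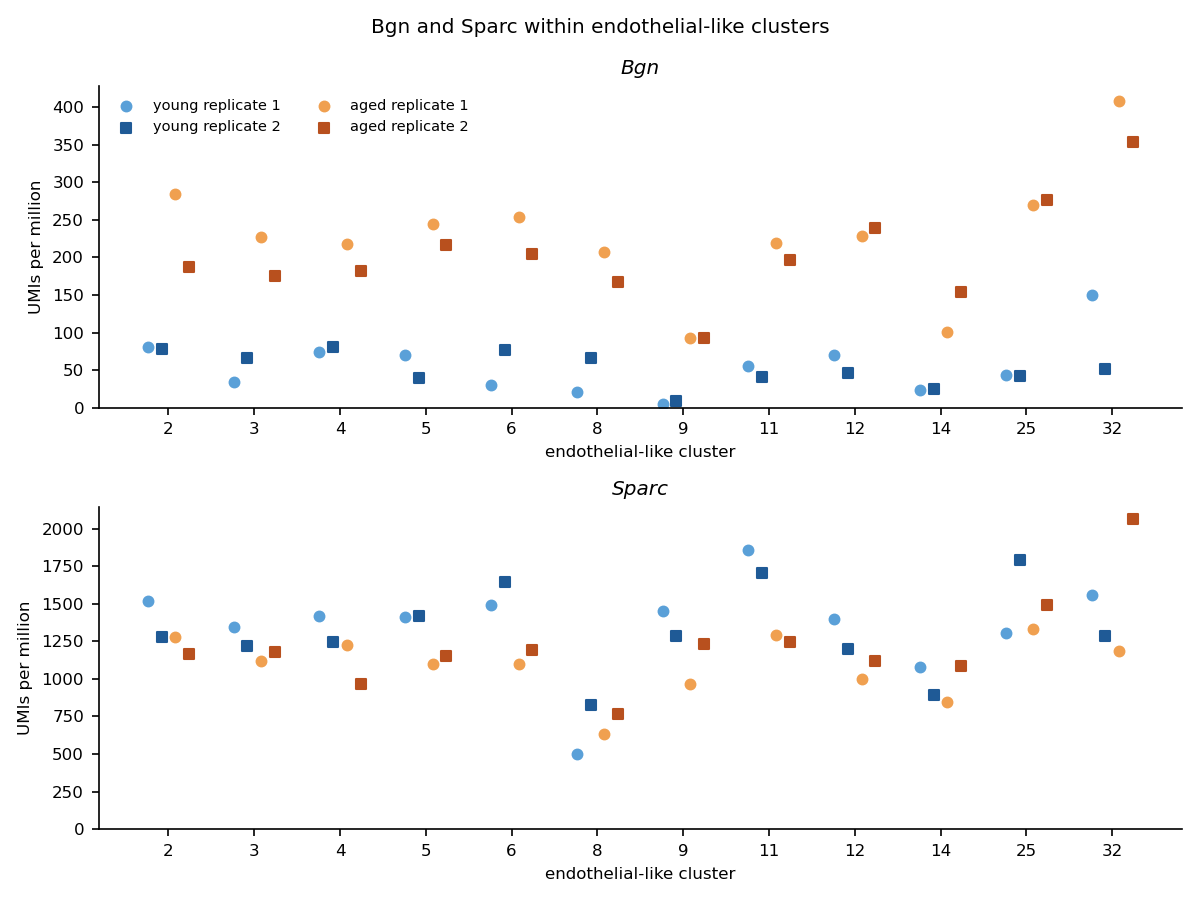
Bgn (top) and Sparc (bottom) in CPM within each of 12 endothelial clusters. Each point is the summed cells of 1 library in that cluster, young in blue and aged in orange. For Bgn both aged points lie above both young points in all 12 clusters, and for Sparc the groups overlap in 5 clusters and the aged points lie lower in 7.

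Free RNA released from broken cells can add UMIs of a gene to droplets that hold other cells, so Bgn was set beside the markers of the class in which it leads. In endothelial cells Bgn reached 4.49% and 5.04% (young) and 12.6% and 11.7% (aged) of its mesangial level. The 8 mesangial markers summed to 206 and 267 CPM (young) and 236 and 277 (aged) there, 1.89%, 2.57%, 2.54% and 3.15% of their mesangial level, and none was at 0. Most of that sum was Tbx3, at 170 and 207 young and 135 and 165 aged. Of these 8 markers only Serpine2 lay higher in both aged libraries, at 26 and 34.1 young and 87.3 and 97.5 aged. Ptn, for example, stood at 3.16 and 11.7 young and 5.77 and 8.36 aged, and Sfrp2 at 2.68 and 5.09 young and 2.73 and 2.52 aged.

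In podocytes Bgn stood at 0.28% and 0.38% (young) and 0.43% and 0.52% (aged) of its mesangial level. The summed mesangial markers there stood at 0.40%, 0.40%, 0.45% and 0.41%. The share of Bgn was below that of the markers in 3 libraries and above it in aged replicate 2. Within podocyte cluster 1, which led the young podocytes, Bgn overlapped (3.51 and 4.27 young, 3.78 and 4.34 aged), and in cluster 15 it stood at 3.02 and 4.10 young and 19.0 and 19.4 aged. In cluster 17, which held the largest share of the aged podocytes, it stood at 0 and 6.93 young and 8.55 and 7.71 aged, and in cluster 20 at 5.82 and 1.66 young and 7.25 and 14.7 aged. Both aged values exceeded both young ones in clusters 15, 17 and 20, each value from 26 UMIs or fewer. In smooth muscle and renin cells Bgn stood at 21.9% and 28.9% young and 44.3% and 50.01% aged, and the sum of the 8 mesangial markers lay higher in the aged libraries too, at 14.2% and 17.0% young and 27.0% and 29.4% aged. The markers themselves were split. Serpine2 (167 and 299 young, 1025 and 1072 aged), Sfrp2 (42.9 and 150 young, 338 and 336 aged), Gata3 and Ptn were higher there in both aged libraries. Pdgfrb (295 and 310 young, 283 and 196 aged), Agtr1a (200.1 and 219 young, 133 and 112 aged), Des (648 and 465 young, 377 and 456 aged) and Tbx3 (143 and 155 young, 116 and 98.1 aged) were lower in both. The part of these cells' marker levels in the Bgn difference was not tested. That class was also made of different clusters, with cluster 29 holding 45.5% and 54.3% of its young cells and the renin cluster 55 holding 41.3% and 48.5% of its aged ones. Within cluster 54, which all libraries shared, Bgn stood at 346 and 333 young and 742 and 961 aged, from 25, 7, 14 and 11 cells.

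Lymphocytes, which are not known to make biglycan, gave the background. B cells held 0 and 8 Bgn UMIs young, 0 and 76.5 CPM, and 1 and 0 aged. T and NK cells held 0 and 2 young and 0 and 1 aged. Young replicate 2 had the highest lymphocyte level, 7.12% of its mesangial level in B cells, above its podocyte and endothelial shares. The endothelial level of Bgn in that library (54.2) therefore lay below its B cell level (76.5), which was counted from 8 UMIs.

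**Figure D3:**
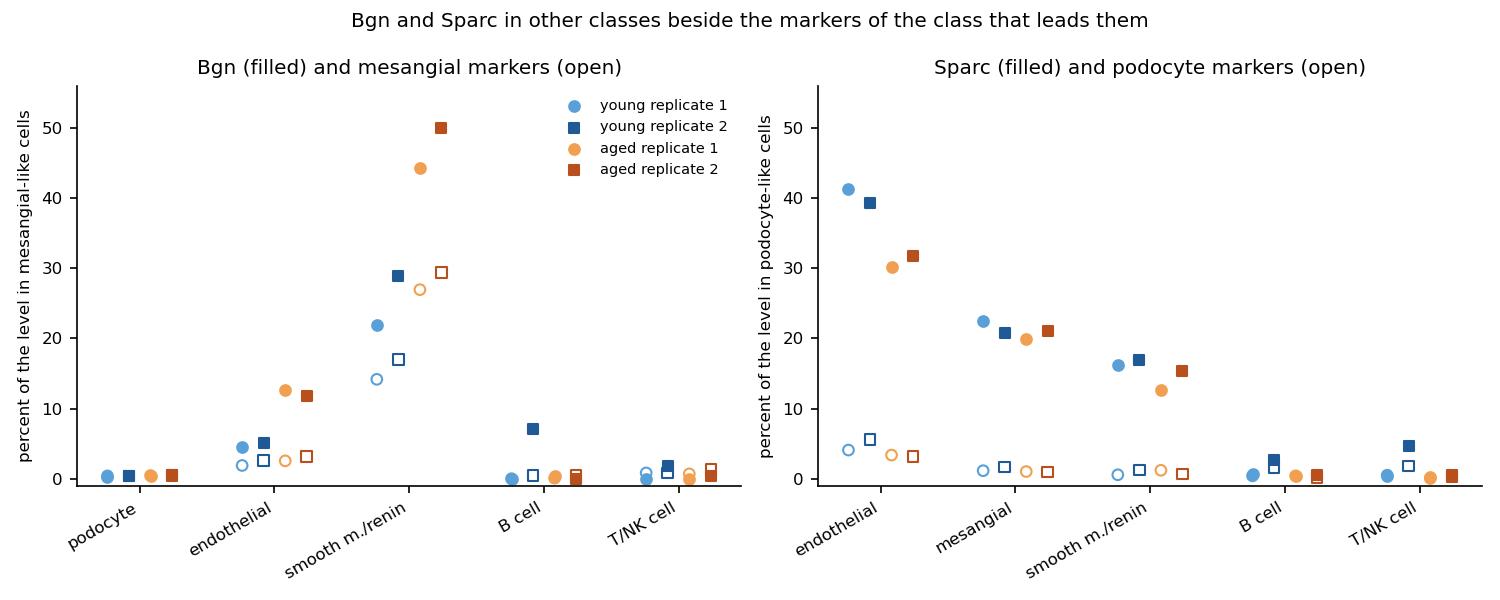
Bgn as a percent of its mesangial level (left, filled) beside the summed mesangial markers (open), and Sparc as a percent of its podocyte level (right, filled) beside the summed podocyte markers (open), by class and library. In endothelial cells Bgn stands at 4.49% to 5.04% in young and 11.7% to 12.6% in aged libraries, while the markers stand between 1.89% and 3.15%.

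Decorin (Dcn, ENSMUSG00000019929, chr10:97479609-97518143, plus strand), the collagen-binding relative of biglycan, was led by parietal epithelial cells, at 77.6 and 137 CPM young and 121 and 48.6 aged, with overlapping groups and a fitted difference of -0.43 (SE 0.42) that ran from -1.07 to 0.20 over the alternatives. Mesangial cells were next, at 4.40 and 1.89 young and 32.6 and 48.0 aged, from 7, 2, 138 and 262 UMIs. Those aged UMIs came from 87 and 132 cells. The aged values were far above the young ones, with a fitted log2 difference of 3.67 (SE 0.38) that ran from 3.28 to 4.52 over the alternatives. Endothelial cells held 0 Dcn UMIs in each young library and 11 and 24 aged, of which 10 and 20 came from a single cell in each. Smooth muscle and renin cells held none, which allows up to 14.3 to 21.02 CPM by library.

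Lumican (Lum, ENSMUSG00000036446, chr10:97565128-97572703, plus strand) is the next gene after Dcn, 46984 bases beyond its end with no annotated gene between. It was nearly absent. All kept cells of a library together held 2, 0, 7 and 4 Lum UMIs in young replicates 1 and 2 and aged replicates 1 and 2. The zero in parietal epithelial cells, the class that led Dcn, allows 5.61 to 19.4 CPM by library. Of the 4 UMIs in mesangial cells of aged replicate 1, all came from 1 cell. Lum passed the filter on low counts in no class tested.

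Versican (Vcan, ENSMUSG00000021614, chr13:89655312-89742509, minus strand), the large hyaluronan-binding proteoglycan, was a gene of monocytes in these libraries. The monocyte and dendritic class held 125 and 145 CPM young and 261 and 208 aged, which was 63.5%, 58.5%, 82.8% and 64.5% of each library's Vcan UMIs. No resident class had a mean above 1.56. Both aged values exceeded both young values. The fitted difference was 0.87 (SE 0.25). That class was again made of different clusters: cluster 51 (Ccr2, Ly6c2 and Fn1) held 68.1% and 53.8% of its young cells, and cluster 27 held 33.5% and 36.9%, and the dendritic cluster 31 (Cd209a and Ccr7) 47.3% and 51.5%, of its aged ones. In cluster 51 Vcan stood at 146 and 237 young, and in cluster 27 at 289 and 239 aged. Cluster 52, with Vcan, Fn1 and Chil3 among its leading genes, stood at 1206 and 1133 aged, from 30 and 12 cells, and held 3 and 1 young cells. In aged replicate 1 it held 134 of the 221 Vcan UMIs of the class. The part of the clusters in the class difference of Vcan was not tested. The dendritic cluster 31 held 0 Vcan UMIs in all 4 libraries.

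Fibronectin (Fn1, ENSMUSG00000026193, chr1:71585520-71653200, minus strand), the adhesive glycoprotein that other matrix proteins assemble on, had the same leading class, but with the opposite order. Monocytes and dendritic cells stood at 699 and 757 CPM young and 377 and 438 aged, with a fitted difference of -0.78 (SE 0.19). Cluster 51 stood at 954 and 1026 young, and cluster 27 at 551 and 519 aged. Cluster 52 stood higher than both, at 1404 and 2293 aged, and held 156 of the 319 and 174 of the 291 Fn1 UMIs of the class in those libraries. Its 3 and 1 young cells held 15 and 7. Cluster 31 held 0, 3, 1 and 4 Fn1 UMIs and was a larger part of the class in the aged libraries (26.1% and 28.2% young, 47.3% and 51.5% aged). Its part in the class difference was not tested. Endothelial cells held 4.89 and 4.58 young and 3.35 and 3.69 aged (fitted difference -0.32, SE 0.29). Endothelial cluster 33 (Serpinf1, Mgp and Gja1), of 43 and 42 aged cells, stood at 107 and 164, from 14 and 32 UMIs. Podocytes held 0 Fn1 UMIs in all 4 libraries, which allows up to 0.39 to 0.95 CPM. Of 15 Fn1 UMIs in mesangial cells of young replicate 1, all came from 1 cell.

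Tenascin C (Tnc, ENSMUSG00000028364, chr4:63959785-64047015, minus strand), an oligomeric glycoprotein known from injured and remodelling tissue, had levels above 10 CPM in 2 classes, parietal epithelial and mesangial. Parietal epithelial cells stood at 265 and 280 young and 400 and 438 aged, with a fitted difference of 0.65 (SE 0.22). Those levels came from 41, 45, 122 and 234 UMIs. Without the cell that held the most Tnc they were 168 and 236 young and 368 and 408 aged. Cluster 47 held 53.1% and 34.2% of this class young and 82.7% and 58.3% aged. There Tnc stood at 448 and 540 aged, and in cluster 48 at 125 in young replicate 2 and 273 in aged replicate 2. Those in cluster 48 came from 9 and 56 UMIs. The other libraries had under 20 cells in these clusters. In young replicate 2 cluster 48 held 25 of the 38 cells but only 9 of the 45 Tnc UMIs of the class. In aged replicate 1 cluster 47 held 43 of the 52 cells and 115 of the 122 UMIs. A difference within these clusters is not read from these values. The part of the clusters in the class difference was not tested. Mesangial cells stood at 39.0 and 36.8 young and 171 and 173 aged, from 62, 39, 725 and 944 UMIs. The 2 libraries of each age were close to each other and far from the other age, with a fitted difference of 2.29 (SE 0.17) that ran from 2.18 to 2.47 over the alternatives. Tnc UMIs were present in 44 of 282 and 30 of 195 young and in 305 of 665 and 292 of 524 aged mesangial cells, not thinned to equal depth.

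Because parietal epithelial cells led both Tnc and Dcn, their markers were read in mesangial cells. The 7 parietal markers summed to 348 and 329 CPM young and 2013 and 884 aged, so they moved with Tnc and Dcn. Nearly all of that sum was Akap12, at 344 and 325 young and 2008 and 874 aged. The transcription factors Pax8 and Pax2 were at 0 in mesangial cells of all 4 libraries, Dkk3, Cldn11 and Krt18 were at or below 0.24, and Cldn1 stood between 3.77 and 10.07.

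Periostin (Postn, ENSMUSG00000027750, chr3:54361109-54391037, plus strand), a matricellular protein of fibroblast-like cells, was detected at a low level and in mesangial cells almost alone. It stood at 11.3 and 6.60 CPM young and 0.71 and 1.10 aged, from 18, 7, 3 and 6 UMIs, with a fitted difference of -3.17 (SE 0.53). It was the only one of the 9 whose mesangial level lay lower in both aged libraries.

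Without young replicate 2 the fitted mesangial differences were 3.28 for Dcn, 2.24 for Tnc and -3.48 for Postn.

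The mesangial class did not hold the same cells in both groups. Cluster 18, led by Gucy1a3, Steap4 and Sfrp2, held 94.7% and 93.3% of the class in the young libraries. Cluster 7, led by Cxcl13, Rab3c and Ccl2, held 94.6% and 97.1% of it when aged. Cells of the minor cluster in each library were few but could be read. Within cluster 18, Tnc stood at 38.2 and 37.9 young and 91.8 and 73.5 aged, the aged values from 12 and 5 UMIs in 36 and 15 cells. Within cluster 18, Bgn stood at 1310 and 1078 young and 1676 and 1529 aged. Within cluster 7, Bgn stood at 1247 and 951 young, from 15 and 13 cells, and 1844 and 1712 aged. Tnc in cluster 7 stood at 65.6 and 0 young, from 3 and 0 UMIs, and 174 in each aged library. Dcn in cluster 7 stood at 33.6 and 48.4 aged, and the young cells there held 0 and 1 UMIs, whose intervals reach 80.7 and 177. Dcn in cluster 18 stood at 4.53 and 0.97 young, and the aged cells there held 0 and 1 UMIs, whose intervals reach 28.2 and 81.9. Postn in cluster 18 stood at 11.7 and 5.83 young, and the aged cells there held 0 UMIs, whose intervals reach 28.2 and 54.2. In cluster 7 Postn stood at 0.73 and 1.11 aged, from 3 and 6 UMIs. Cluster 18 held all 18 Postn UMIs of the class in young replicate 1 and 6 of the 7 in young replicate 2. For Bgn and Tnc the aged values exceeded the young ones within both clusters, though the intervals of Tnc in young cells of cluster 7 reach 192 and 117. In cluster 18 the aged Tnc values came from 12 and 5 UMIs, and the interval of the second covers both young values. For Dcn and Postn a difference within a cluster was not detectable at this depth. Genes that the dissociation of tissue is known to switch on summed to 29236 and 32951 CPM (young) and 22629 and 28529 (aged) in mesangial cells. Of these 10 genes 3 were called lower with age and none higher, 30% against 5.46% of all genes tested.

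**Figure D4:**
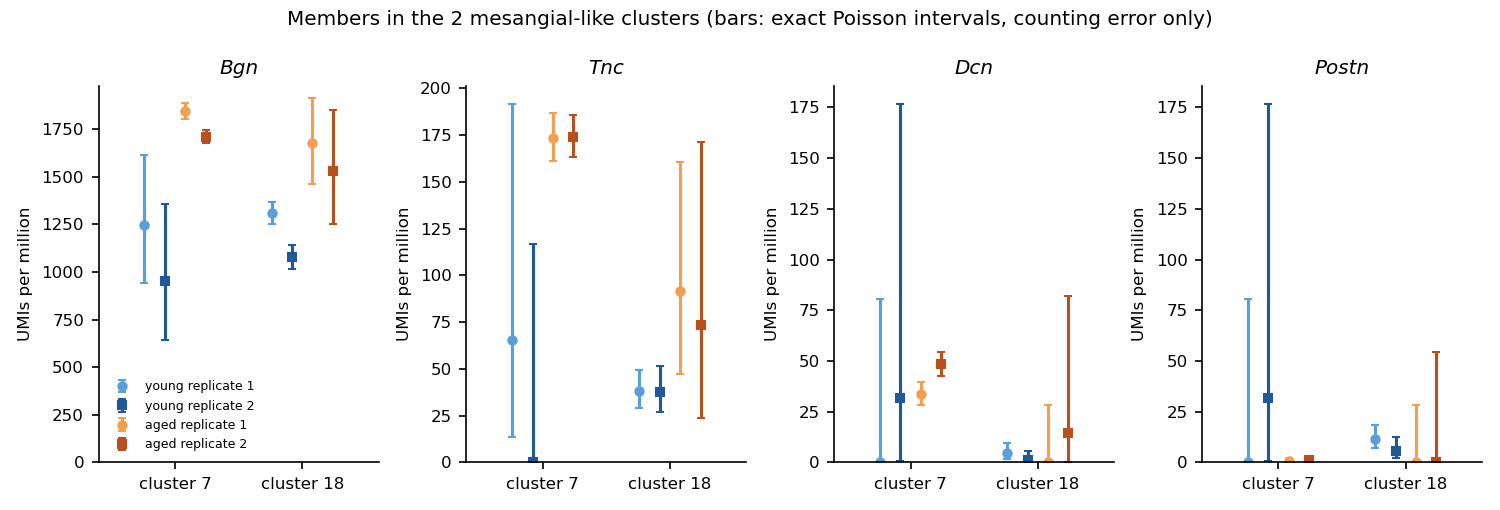
Bgn, Tnc, Dcn and Postn in CPM in mesangial clusters 7 and 18, by library, with exact 95% Poisson intervals that cover counting error only. Cluster 7 holds 15 and 13 young cells and cluster 18 holds 36 and 15 aged cells, which sets the width of their intervals, and the aged points of Bgn and Tnc lie above the young ones in both clusters.

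Osteopontin (Spp1, ENSMUSG00000029304, chr5:104435118-104441050, plus strand), an integrin and CD44 ligand that injured epithelium and macrophages are known to make, was led by parietal epithelial cells among the named classes. They stood at 2542 and 3195 CPM young and 5042 and 4178 aged, with a fitted difference of 0.71 (SE 0.15). Cluster 47 held 53.1% and 34.2% (young) and 82.7% and 58.3% (aged) of that class. Without young replicate 2 the fitted difference was 0.87. Within cluster 47 the order was the same with a smaller gap, at 3776 and 5074 young and 5893 and 5758 aged, and within cluster 48 the groups overlapped, at 1348 and 900 young and 498 and 1635 aged. Macrophages of the aged libraries, of which the young ones held too few, stood at 18.2 and 7.64, far under the parietal level.

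Low levels of Spp1 elsewhere also differed between libraries of the same age. Both aged values exceeded both young ones in endothelial, smooth muscle and renin, and monocyte and dendritic cells. In T and NK cells both were lower. In monocytes and dendritic cells Spp1 stood at 0 and 6.05 young and 46.1 and 19.6 aged, from 0, 1, 39 and 13 UMIs. In smooth muscle and renin cells each aged value came from 1 UMI. In endothelial cells it stood at 0.63 and 1.02 young and 5.89 and 1.54 aged, with a fitted difference of 2.34 (SE 0.66), and in podocytes at 0.65, 1.59, 3.78 and 0.41. Aged replicate 1, the highest in both, also held 122 cells of the unnamed cluster 26, led by tubule genes such as Umod, Slc12a3 and Aqp2, with Spp1 at 4833, while young replicate 2 held 173 such cells at 1617 and aged replicate 2 held 21 at 6825. Carry-over from those cells was not tested. In mesangial cells 108 of the 185 Spp1 UMIs of aged replicate 1 came from 1 cell, and without that cell the level was 18.2 in place of 43.7, against 0 and 7.55 young and 1.28 in the other aged library. Its fitted difference there, 2.94 (SE 1.53), ran from -1.19 (without aged replicate 1) to 9.41 (without young replicate 2).

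Sparc (ENSMUSG00000018593, chr11:55394500-55423183, minus strand), a collagen-binding matricellular protein also called osteonectin, was the most widely spread of the 9. Podocytes stood at 3385 and 3224 CPM young and 3599 and 3638 aged. The groups did not overlap, but the fitted difference was 0.19 (SE 0.16). Endothelial cells stood at 1397 and 1268 young and 1089 and 1157 aged, lower in both aged libraries, with a fitted difference of -0.13 (SE 0.17) that reached 0.01 without young replicate 1. Mesangial cells (761 and 672 young, 719 and 765 aged), parietal epithelial cells (1416 and 1333 young, 1072 and 1385 aged) and smooth muscle and renin cells (548 and 545 young, 454 and 561 aged) overlapped. The fitted differences in those 3 classes were 0.16 (SE 0.16), -0.13 (SE 0.18) and -0.08 (SE 0.21), and each changed sign under at least 1 alternative. Parietal epithelial (1301 ± 157) and endothelial cells (1228 ± 135, SD, n = 4) could not be ordered beyond their spread.

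Within all 4 podocyte clusters the aged values of Sparc exceeded both young values, with ratios of the means from 1.07 to 1.15. Of 7562 genes, 1.86% had that order in the 4 clusters and 2.91% the opposite order. Sparc too was chosen on its levels in these libraries, of which the clusters are parts, so this is a description. Podocyte cluster 1 held 54.1% and 56.6% of the podocytes in the young libraries, and cluster 17 held 42.8% and 46.9% when aged. In cluster 1 Sparc stood at 3452 and 3188 young and 3889 and 3755 aged, and in cluster 17 at 3226 and 3038 young and 3455 and 3553 aged. Within 12 endothelial clusters the aged libraries lay below the young ones in 7 and overlapped in 5, with a median ratio of 0.85.

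Sparc was set beside the podocyte markers in the same way. In endothelial cells it stood at 41.3% and 39.3% of its podocyte level young and 30.3% and 31.8% aged, where 8 podocyte markers summed to 4.08%, 5.61%, 3.37% and 3.18% of theirs. Most of that marker sum was Podxl, which endothelial cells also make. In mesangial cells Sparc stood at 20.0% to 22.5% against 0.96% to 1.68% for the markers. In B cells it stood at 21.7 and 86.1 young and 14.3 and 21.7 aged, and in T and NK cells at 15.01, 150, 7.98 and 21.5. These are 0.22% to 4.66% of the podocyte level, highest in young replicate 2, and the lymphocyte levels of the other 3 libraries lay under 22. In macrophages of the aged libraries it stood at 5.88 and 6.82.

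**Figure D5:**
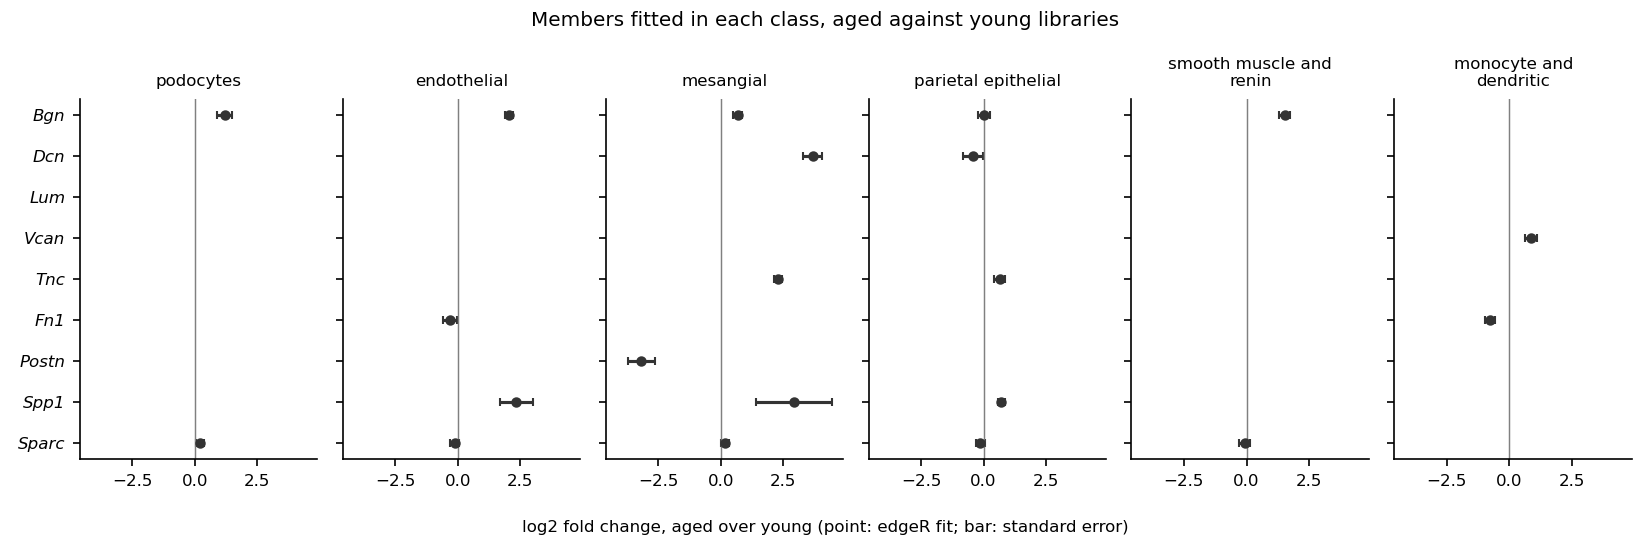
Fitted log2 fold change, aged over young, of each of the 9 genes in each class where it passed the filter on low counts (points, edgeR fit on 2 against 2 libraries, bars 1 standard error). Bgn lies to the right in endothelial and in smooth muscle and renin cells, Dcn and Tnc in mesangial cells, Postn lies at -3.17 in mesangial cells, and the points for Sparc lie within 0.19 of 0.

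The lists were chosen with earlier results of these libraries known, so the counts of their calls are a description. The shares of clusters within the classes differed by age, and their part in the differences of list genes was not tested. Other genes of the same matrix pathways came from 7 lists, 134 genes in all, of receptors, partners, relatives, TGF-beta signalling and chain synthesis, and the 9 genes were not among them. In mesangial cells the median log2 difference of the 69 tested genes of these lists was 0.21 against -0.01 over all genes tested. Of the 69, 15 were called with age (12 higher, 3 lower), 21.7% against 5.46% of all genes tested. Without TMM factors the split was 10 higher and 5 lower. Thbs1, which encodes the TGF-beta activator thrombospondin 1, rose from 34.6 and 62.3 to 322 and 381 CPM, a log2 change of 3.01 (SE 0.23, adjusted p = 9.47e-05). Csgalnact1, an enzyme that starts chondroitin sulfate chains, rose by 2.28 (SE 0.40), although it stood at -0.30 with mixed cells kept. Adamts9, a protease that cuts versican, rose by 2.63 (SE 0.52), the TGF-beta signal mediator Smad3 by 1.49 (SE 0.32), and Wisp1, a matricellular relative, by 1.12 (SE 0.22). The fibronectin receptor subunit Itga4 fell from 416 and 497 to 229 and 220 CPM, and the syndecan Sdc1 and nephronectin (Npnt) fell by 0.96 (SE 0.19) and 2.04 (SE 0.39) on the log2 scale. Receptors of the 9 genes had 5 of 15 called, 3 higher and 2 lower. Cluster 18 held 94.7% and 93.3% of the young mesangial cells, and cluster 7 held 94.6% and 97.1% of the aged ones. The lists gave 1 mesangial call without young replicate 1, 3 without young replicate 2 and 26 without aged replicate 2.

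In endothelial cells 14 of 80 tested list genes were called (17.5% against 5.92% of all genes), 7 in each direction. Without TMM factors the split was 6 higher and 7 lower. The median of the 80 was 0.02 against -0.01 over all genes. Adamts9 (1.32, SE 0.21), the integrin subunit Itgb3 (1.33, SE 0.24), Ctgf (0.94, SE 0.19), Adamts4 (0.70, SE 0.14) and Skil, a repressor of SMAD proteins (0.81, SE 0.18), rose on the log2 scale. Adamts9 is among the leading genes of endothelial cluster 3, which held 2.33% and 1.79% of the class young and 16.6% and 8.56% aged. The part of that cluster was not tested. Sparcl1, the nearest relative of Sparc, fell from 67.2 and 62.6 to 26.7 and 28.5. Npnt fell by 1.20 (SE 0.19), Itgb5 by 0.80 (SE 0.14), elastin (Eln) by 0.87 (SE 0.16), Thbs2 by 0.83 (SE 0.17) and Adamts5 by 0.63 (SE 0.15). None of these calls was made without young replicate 1 or without young replicate 2, where edgeR called no gene in the class (1981 and 1609 at an unadjusted p under 0.05), and the lists gave 8 without aged replicate 1.

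Podocytes had 6 of 52 tested list genes called (11.5% against 6.94% of all genes), 5 higher and 1 lower. The median of the 52 was 0.07 against 0.00 over all genes. Ctgf, a matricellular growth factor binder of the CCN family, rose from 152 and 156 to 628 and 564 CPM (log2 change 2.00, SE 0.14, adjusted p = 1.91e-15), and was called in all 12 alternatives. Its relative Cyr61 rose by 0.78 (SE 0.14), and the proteases Adamts1 and Adamts4 by 1.21 (SE 0.16) and 2.05 (SE 0.40). Hyal1, a hyaluronidase, fell by 1.30 (SE 0.32). Of 10 dissociation genes, 3 were called higher and 1 lower in podocytes, 40% against 6.94% of all genes. Their sum was 35171 and 36180 young and 32924 and 38251 aged. The part of dissociation in the podocyte calls was not tested. The lists gave 10 podocyte calls without young replicate 2. In parietal epithelial cells 6 of 36 were called (16.7% against 3.77% of all genes), with a median of 0.09. Ctgf rose from 433 and 523 to 1160 and 1154, Adamts1 by 1.19 (SE 0.17), Adamts5 by 1.59 (SE 0.25), the ligand Tgfb2 by 2.17 (SE 0.43) and Ecm1 by 1.15 (SE 0.29), and Npnt fell by 0.91 (SE 0.22). In that class 6 of 10 dissociation genes fell and none rose, and their sum was 14158 and 15616 young and 6084 and 9245 aged. The part of dissociation was not tested. In smooth muscle and renin cells the called share of list genes was 6.25% against 2.16% of all genes. Smooth muscle and renin cells had 2 of 32 called, both higher, among them Ecm1 (1.13, SE 0.28), and neither was called without young replicate 1, where edgeR called no gene of that class (288 at an unadjusted p under 0.05).

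The genes whose levels were most like those of each of the 9 were sought over 36 class-by-library sums among 8694 genes, by Pearson correlation of log2 CPM plus 1. The sums share libraries and cell classes, so these are descriptions. Bgn was most like Adamts5 (0.94), Fbn1 (0.94) and Mgp (0.93). Dcn was most like Tnc (0.91), Cdo1 (0.91) and Glis3 (0.89), and Tnc like Cp (0.96), Fras1 (0.91) and Dcn (0.91). Vcan was most like F13a1 (0.95), Cd209a (0.91) and Chil3 (0.90), and Fn1 like F13a1 (0.84), Chil3 (0.84) and Ltb4r1 (0.83). Spp1 was most like Igfbp6 (0.86), Folh1 (0.85) and Stc2 (0.85), and Sparc like Sema5a (0.96), Egr1 (0.96) and Amotl2 (0.95). Lum and Postn reached a mean of 10 CPM in no class and were not compared.

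Part of each gene's UMIs lay in cells that were given no class, because they carried markers of several classes or too few of any. For Bgn this was 49.0% and 61.4% of its UMIs young and 17.1% and 16.8% aged, and for Sparc 10.5%, 44.7%, 6.13% and 8.05%. For Spp1 the unnamed cluster 26 alone held 455 UMIs in young replicate 2 and 5692 and 2005 in the aged libraries. Parietal epithelial cells held 513, 1538 and 2233 in those libraries. Keeping such cells of named clusters in their class raised the mesangial calls from 575 to 1659 genes. Mixed cells were set aside unevenly by age in that class. Cluster 18 kept 267 of its 407 and 182 of its 270 young cells. Cluster 7 kept 629 of its 683 and 509 of its 536 aged cells.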

How the data were processed

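Single-cell libraries of glomeruli from 2 young and 2 aged preparations were analysed. The deposited matrices hold raw UMI counts per gene and barcode, with no normalization, one per library, per the file headers. The submitters' processing notes and file headers name Cell Ranger 6.0.1 and GRCm38, while the labels' protocol names another Cell Ranger version, and which made the counts was not settled. No barcode in the deposited counts had under 500 UMIs, so barcodes below that were left out before deposition.

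The 9 genes and the gene lists were chosen with earlier results of these data known. Barcodes with at least 500 genes and at most 20% mitochondrial UMIs were kept. Scrublet scores (scanpy 1.11.5) marked 134 of 29876 automatically, too few, so the highest scores were removed at 0.8% per 1000 barcodes (1876). Clusters came from 2000 variable genes without the 9, 30 components, 15 neighbours and leidenalg 0.10.2 at resolution 2, and 6 clusters in which 2 classes scored were clustered again. Of 61 clusters 36 were named. The naming thresholds were set after seeing the data. Cells with markers of an unrelated class were set aside. Counts were summed per class and library and tested with edgeR 4.0.16 (R 4.3.3; quasi-likelihood F test, TMM, filterByExpr, Benjamini-Hochberg over all genes, adjusted p under 0.05), also on simulated data with known fold changes. DESeq2 1.42.0 was an alternative. The monocyte and dendritic class, the values within clusters and the levels without the top cell were added after seeing the data. Fold changes come from the fit, and levels are counts per 1000000 UMIs. List genes are named by their smallest p, up to 6 per direction and class, and 1 gene that counts include is not reported here by name. Positions are from GENCODE vM21, upstream sequences from RefSeq. Classes with under 20 cells in a library were not compared, and age in months, sex and strain, which the labels lack, could not be used.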

Additional observations from a re-analysis of the deposited data

Results flagged for a closer look

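The values of Sparc lay in opposite orders in 2 classes under the same contrast. The aged values exceeded both young values in podocytes (fitted log2 difference 0.19) and were below both in endothelial cells (-0.13). Each difference is about as large as its standard error (0.16 and 0.17), neither was called in any of 12 alternatives, and the endothelial one turned to 0.01 without young replicate 1. The groups did not overlap for 46.6% of all genes in podocytes and 52.1% in endothelial cells. The difference between the classes was not tested. Cluster 26, which got no class and so entered no comparison, held Spp1 at 4833 and 6825 CPM in the aged libraries, above the level of every named class in the young ones. Its leading genes include S100g, Klk1, Calb1, Umod and Aqp2. It held 5, 173, 122 and 21 cells in young replicates 1 and 2 and aged replicates 1 and 2, and in young replicate 2 Spp1 stood there at 1617.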

How the results depend on the processing

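The smallest groups were 2 libraries, so leaving 1 out leaves a lone library whose spread is assumed to be that of the other group. The number of genes called with age moved from 751 to 312 to 822 in podocytes, from 777 to 0 to 711 in endothelial, from 575 to 60 to 1855 in mesangial, from 162 to 135 to 237 in parietal epithelial and from 67 to 0 to 70 in smooth muscle and renin cells when each library was left out in turn (lowest and highest). Without either young library no endothelial gene was called. List calls ran from 4 to 10 (6 with all libraries), 0 to 13 (14), 1 to 26 (15), 5 to 9 (6) and 0 to 3 (2) in the same order. DESeq2 called 273, 499, 373, 56 and 18 genes, and 3 parietal and 0 smooth muscle list genes. With no filter on low counts 0 endothelial genes (2263 at an unadjusted p under 0.05), 1198 mesangial and 294 parietal genes were called, and 0, 24 and 12 list genes. Doublets kept gave 274 podocyte genes, and 2 podocyte and 1 smooth muscle list gene. Mixed cells kept gave 1659 mesangial genes, and 30 mesangial and 4 smooth muscle list genes. A mitochondrial limit of 10% gave 85 parietal genes and 1 smooth muscle list gene, and upper-quartile factors 1 smooth muscle list gene. The replicate numbers are not said to pair libraries, and the deviations of same-numbered libraries correlated at 0.01 to 0.18. With a replicate block 1549 endothelial, 1348 mesangial and 115 smooth muscle genes were called, and 22 endothelial and 26 mesangial list genes. Without TMM factors the share of called genes that were higher in aged libraries went from 67.2% to 45.2% in endothelial, 64.5% to 47.9% in mesangial and 66% to 55.4% in podocytes, as the median of all genes shifted by -0.12 in endothelial and -0.11 in mesangial cells. Among the called differences given here the sign turned in Bgn (-0.88) in podocytes with doublets kept and Csgalnact1 (-0.30) in mesangial cells with mixed cells kept. In these settings class membership itself changes. Differences that were not called turned sign under at least 1 alternative for Spp1 (-1.19 without aged replicate 1) and Sparc (-0.24 with mixed cells kept) in mesangial cells, for Sparc in endothelial cells (0.01 without young replicate 1) and in smooth muscle and renin cells (0.08 without aged replicate 1), and for Bgn, Dcn and Sparc in parietal epithelial cells. Counts of 3 UMIs or fewer, as for Lum, and clusters with under 20 cells limit what could be seen.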
